A study of Homo sapiens and Mus musculus with 12 samples.

Results

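The genes described here are the aryl hydrocarbon receptor, its partner, its feedback inhibitors and a target in natural killer (NK) cells, namely Ahr, Ahrr, Tiparp, Cyp1b1 and Arnt in mouse and AHR, AHRR, TIPARP, NQO1 and ARNT in human. They are the rows with these symbols in a mouse and a human RNA-seq count table, 5 of 22021 mouse genes and 5 of 18304 human genes, 10 of 40325 in all. The symbols were selected on their measured log2 fold changes in both comparisons, KO against WT and BIX-01294 against DMSO, so the changes of these 10 genes between groups are given as descriptions without p-values, and calls among them are only counted beside the share over all genes.

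The mouse libraries came from CD3-NK1.1+ NK cells sorted from the spleens of adult, age- and sex-matched C57BL/6J mice, 3 WT and 3 KO. WT mice were Ehmt2 flox/flox controls, and KO mice were Ehmt2 flox/flox; Ncr1-iCre, so that Cre is driven by the gene of the receptor NKp46 and acts in NK cells and other NKp46+ innate lymphoid cells. Both groups therefore carry floxed Ehmt2, and the genotype label of the KO libraries reads Ezh2-KO where their titles name EHMT2. The human libraries came from NK92MI, a single NK lymphoma line that makes its own interleukin 2, treated with BIX-01294, an inhibitor of the histone H3K9 methyltransferases EHMT2 and EHMT1, or with DMSO, 3 libraries each. The labels do not say whether the NK92MI libraries are separate cultures, so the spread between them may be technical. The comparisons ask how loss or inhibition of EHMT2 changes transcripts in NK cells.

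AHR is a ligand-activated transcription factor that waits in the cytoplasm with HSP90 and other chaperones. Dietary, microbial, tryptophan-derived and xenobiotic ligands send it to the nucleus, where it pairs with ARNT and binds short DNA elements with the core GCGTG. AHRR competes with AHR for ARNT, TIPARP ADP-ribosylates AHR and promotes its loss, CYP1B1 oxidises AHR ligands, and NQO1, a quinone reductase, is a shared target of AHR and of the stress factor NRF2. In innate lymphoid cells, AHR is known for its part in the upkeep of group 3 cells and of tissue-resident NK cells.

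In the GENCODE M21 annotation of GRCm38, Ahr lies on the minus strand at chr12:35497974-35535038, Ahrr on the minus strand at chr13:74211118-74292331, and Cyp1b1 on the minus strand at chr17:79701537-79715061. Tiparp lies on the plus strand at chr3:65528410-65555518 and Arnt on the plus strand at chr3:95434388-95497240. In GENCODE 44 of GRCh38, AHR lies on the plus strand at chr7:16916359-17346152, AHRR on the plus strand at chr5:321714-438291, and TIPARP on the plus strand at chr3:156673235-156706770. NQO1 lies on the minus strand at chr16:69706996-69726668 and ARNT on the minus strand at chr1:150809713-150876708. AHRR overlaps the readthrough gene PDCD6-AHRR on its own strand. AHR overlaps other gene models on both strands, a protein-coding one on its own strand among them, and Arnt overlaps a pseudogene and ARNT a small nuclear RNA gene on its own strand. TIPARP, NQO1, Ahr and Tiparp each overlap an antisense gene or pseudogene. The strand setting of the counting is not given in the sources used here, so reads of these overlapping genes cannot be told apart.

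The AHR core element was searched as GCGTG on both strands, CACGC being its reverse complement, in RefSeq promoter windows of GRCh38.p14 that run from 250 bases before to 50 bases after a transcript start. All 5 of 5 human genes matched, with 8 windows in all, and 5 of the 8 held the core, as did 36.5% of the 35116 windows of 300 bases of all genes. The longer TNGCGTG, which contains the core, was in 2 of the 8 windows, one of AHRR and the one of NQO1, and in 5.51% of all windows. The matches are shown because they place the letters of the AHR element at AHR itself, at both feedback genes and at NQO1. Each line gives the transcribed strand from 5′ to 3′, with the core in capitals.
AHR, chr7:17298677-17298701, plus strand: tctgttccgagaGCGTGccccggac
AHRR, chr5:321672-321700, plus strand: ggcgggcggctcGCGTGccggggtggggc
AHRR, chr5:322360-322379, plus strand: ggcGCGTGacaggcaggggc
AHRR, chr5:322556-322584, plus strand: gcagaagggtggGCGTGtgcgcgcgttct
NQO1, chr16:69726543-69726571, minus strand: ccgtgcactacaCACGCgactcccacaag
TIPARP, chr3:156674370-156674398, plus strand: cgcgagaaaggaCACGCcccctcgcggga
TIPARP, chr3:156674436-156674464, plus strand: cgaacgaacgcgCACGCgcgcgcaggggg

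The core of AHR began 38 bases into the transcript, and that of NQO1 at its base 2, read on the opposite strand. AHRR held the core at -30 before its first start and at -247 and -42 before its second, and TIPARP at -208 and -142 before 1 of its 3 starts. The ARNT window and the windows of the other 2 TIPARP starts held none, which says only that these letters are not in those windows. These matches are descriptions of sequence, and binding was not measured here.

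Library totals lay between 25891680 (WT replicate 2) and 37438868 counts in mouse and between 16579469 and 17165446 in human. Of mouse counts from 2 to 50, 86.1 to 89.3% were even numbers, against 52.7 to 54.5% in human. The cause was not tested, and the precision of low mouse counts, such as those of Cyp1b1, is therefore uncertain. The targeted gene Ehmt2 was lower in KO (log2 fold change -0.91, standard error 0.10, edgeR adjusted p = 0.0162), and EHMT2 itself was lower with BIX-01294 (-0.58, standard error 0.08, edgeR adjusted p = 0.000101), each in 3 of 3 libraries. KO replicate 1 and WT replicate 2 stood apart from their groups. They differed from each other by a chi-square of 27.4 per gene, less than KO replicate 1 differed from KO replicate 2 (50.4) or WT replicate 2 from WT replicate 3 (53.4). In bulk RNA, fewer cells of a type and less RNA per cell cannot be told apart, and this holds for every level below.

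Loss of Ehmt2 went with lower Ahr and lower Ahrr in splenic NK cells, while Arnt, the partner that AHR needs to bind DNA, was close to its WT level. Ahr was counted at 22.9, 18.2 and 29.1 CPM (counts scaled to library size, with TMM normalization) in WT replicates 1 to 3 and at 13.9, 11.9 and 14.6 CPM in KO replicates 1 to 3. All 3 KO libraries were below all 3 WT libraries, with KO replicate 3 and WT replicate 2 the nearest. The log2 fold change was -0.80 (standard error 0.18, 95% interval -1.21 to -0.38).

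Ahrr, the repressor that competes for Arnt, was counted at 1.78, 1.47 and 1.99 CPM in WT and at 1.03, 1.13 and 1.04 CPM in KO. Its groups did not overlap either, and its log2 fold change was -0.71 (standard error 0.26, 95% interval -1.32 to -0.10). Cyp1b1 was near the limit of detection, with 12, 28 and 20 counts in WT and 2, 4 and 10 counts in KO. KO counts were below WT counts in every pair of libraries, but only just for KO replicate 3 and WT replicate 1. The log2 fold change of Cyp1b1 was -2.10 with a wide 95% interval of -3.74 to -0.46 (standard error 0.71), and without KO replicate 3 it was -2.92.

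Tiparp, the enzyme that marks AHR for loss, had 18.4, 14.2 and 20.1 CPM in WT and 16.6, 11.4 and 12.4 CPM in KO. Its groups overlapped, since KO replicate 1 was above WT replicate 2, and its log2 fold change was -0.39 (standard error 0.19, 95% interval -0.82 to 0.05). Arnt had 68.2, 64.9 and 71.0 CPM in WT and 62.9, 76.9 and 77.0 CPM in KO. The KO values of Arnt lay on both sides of the WT values, and the log2 fold change was 0.09 (standard error 0.10, 95% interval -0.15 to 0.32).

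At an edgeR adjusted p under 0.05, 1 of the 5 mouse genes was called, Ahr, as lower, beside 7.43% of the 13189 genes tested that were called lower and 4.44% called higher. The choice of the 5 genes used this comparison, so nothing is read from that count. Ahr was no longer called when any of KO replicate 2 (log2 fold change -0.71), KO replicate 3 (-0.86), WT replicate 1 (-0.81) or WT replicate 3 (-0.61) was left out.

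**Figure D1:**
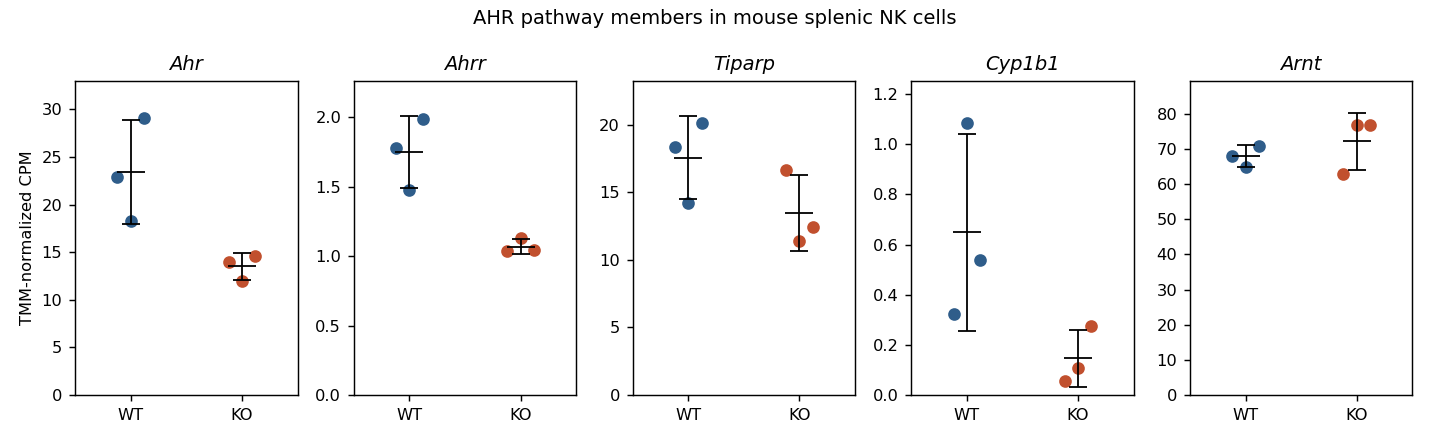
TMM-normalized CPM (y axis, from 0, a separate scale for each gene) of Ahr, Ahrr, Tiparp, Cyp1b1 and Arnt in 3 WT and 3 KO libraries of mouse splenic NK cells. Points are libraries, and bars are the mean and SD (n = 3). Ahr lies between 11.9 and 14.6 CPM in KO and between 18.2 and 29.1 CPM in WT, while the groups of Tiparp and Arnt overlap.

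Markers of other spleen cells moved with genotype in the same libraries as Ahr. The summed level of 8 B cell markers was 718, 432 and 1302 CPM in WT and 397, 35.2 and 42.9 CPM in KO, with 8 of 8 lower, 6 at an unadjusted p under 0.05 and 0 called by edgeR or DESeq2. That of 10 red pulp macrophage and monocyte markers was 6611, 2409 and 4852 CPM in WT and 2388, 1254 and 1827 CPM in KO, with 10 of 10 lower and 5 called by edgeR. All 10 were at an unadjusted edgeR p under 0.05, and DESeq2 called all 10 lower. The groups of both sums did not overlap, and no marker of either list was at 0 in all libraries. Summed dendritic cell markers ranged from 356 to 604 CPM in WT and from 149 to 282 CPM in KO, without overlap. Neutrophil marker sums ranged from 103 to 887 CPM in WT and from 13.6 to 124 CPM in KO, with KO replicate 1 above WT replicate 2. The sums of T cells (144 to 230 CPM in WT, 90.7 to 194 CPM in KO) and of ILC1 and ILC3 (331 to 431 CPM in WT, 278 to 381 CPM in KO) also overlapped between groups. Of the 7 T cell markers, 5 were lower and 2 higher in KO, and edgeR called 1 higher and 0 lower.

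The 12 pan-NK genes went the other way, with a sum of 5614, 9534 and 5882 CPM in WT and 10751, 12541 and 12395 CPM in KO, 12 of 12 higher and 7 called. Among them are Prf1, Il2rb and Tbx21, which the study reported as higher in KO NK cells by RT-qPCR. A larger share of NK cells and higher levels within them cannot be told apart in this sum or in scaling to it. WT replicate 2, the WT library with the least Ahr, also had the smallest B cell and macrophage sums and the largest pan-NK sum of the WT libraries. Scaled to the pan-NK genes, the median log2 fold change of all genes moved from 0.01 to -0.82, and Ahr was at -1.67, Ahrr at -1.58, Tiparp at -1.24 and Arnt at -0.77, so that the sign of Arnt turned with this scaling. Relative to each library's own Arnt, which no scaling changes, Ahr per kilobase of exon was 43.7, 36.5 and 53.3% in WT and 28.8, 20.2 and 24.7% in KO, without overlap. The part of other cell types in the Ahr difference was not tested.

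**Figure D2:**
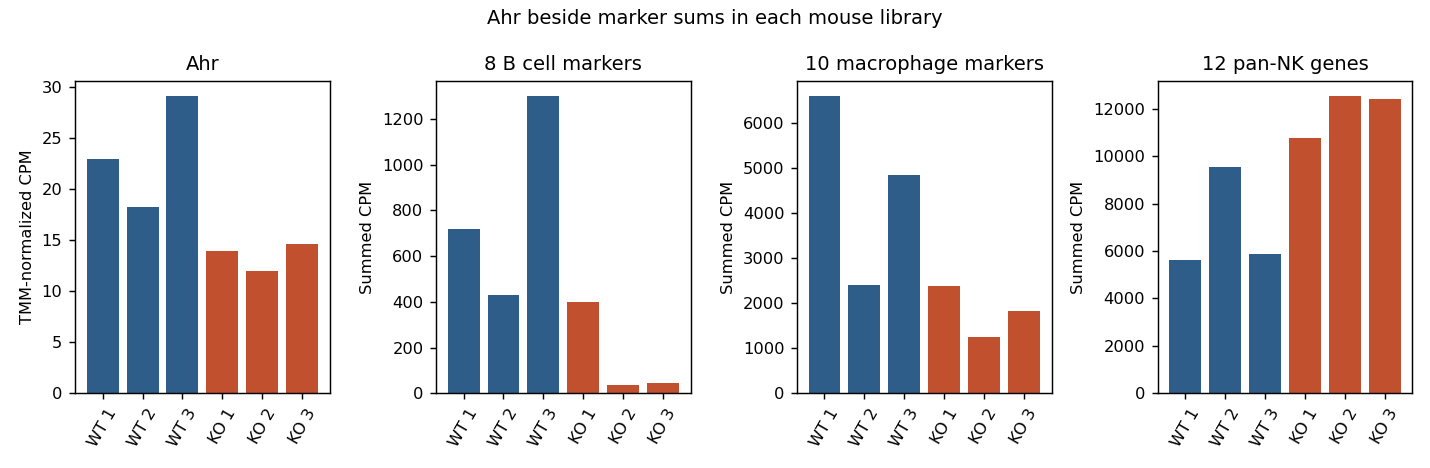
Ahr and the summed level of 8 B cell, 10 red pulp macrophage and monocyte and 12 pan-NK genes in each mouse library, in TMM-normalized CPM from 0 (separate scales). Each bar is 1 library, WT in blue and KO in orange. Ahr and the B cell and macrophage sums are lower in each KO library than in each WT library, and the pan-NK sum is higher.

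In NK92MI cells, BIX-01294 went with more AHR, TIPARP and NQO1 and with less ARNT. AHR was counted at 20.2, 14.5 and 20.4 CPM in the 3 DMSO libraries and at 36.2, 32.1 and 30.3 CPM with BIX-01294. Every treated library was well above every control library, and the log2 fold change was 0.84 (standard error 0.13, 95% interval 0.57 to 1.11). The direction was opposite to that of Ahr in KO mice, but species, cell source and kind of perturbation all differ between the comparisons, and the difference was not tested.

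TIPARP was counted at 36.5, 35.4 and 35.1 CPM with DMSO and at 42.4, 49.97 and 39.6 CPM with BIX-01294. The groups did not overlap, the DMSO libraries were tightly spaced, and the log2 fold change was 0.30 (standard error 0.09, 95% interval 0.10 to 0.50). NQO1 had 5.06, 7.66 and 7.04 CPM with DMSO and 9.92, 8.88 and 11.6 CPM with BIX-01294. All treated libraries were above all controls, by a log2 fold change of 0.62 (standard error 0.17, 95% interval 0.26 to 0.98).

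ARNT was the member that was lower, at 73.9, 80.2 and 71.4 CPM with DMSO and 63.3, 59.5 and 56.3 CPM with BIX-01294. Its groups did not overlap, and its log2 fold change was -0.33 (standard error 0.08, 95% interval -0.49 to -0.17). AHRR had 6, 8 and 4 counts with DMSO and 5, 8 and 3 counts with BIX-01294, too few to pass the filter on low counts. A difference in AHRR was not detectable at this depth, and its count is uncertain because of the readthrough gene.

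Of the 5 human genes, 4 were tested, and all 4 were called at an edgeR adjusted p under 0.05, 3 higher and 1 lower, beside 18.4% of 12727 genes called higher and 18.4% called lower. As in mouse, the choice of the genes used this comparison and nothing is read from the count. TIPARP was no longer called without BIX replicate 2 (log2 fold change 0.20) or without control library CON-1 (0.32), CON-2 (0.29) or CON-3 (0.29), and NQO1 was no longer called without CON-1 (0.46). The summed pan-NK level ranged from 5547 to 5954 CPM with DMSO and from 7215 to 8984 CPM with BIX-01294, with 5 of 11 tested genes called higher and 4 lower. The sums of B cell (17.5 to 20.1 against 28.6 to 32.3 CPM), T cell (490 to 510 against 520 to 596 CPM) and myeloid markers (2.28 to 4.25 against 4.61 to 5.30 CPM) were also higher with BIX-01294. Of these lists, 5 of 8, 3 of 7 and 4 of 8 genes were used. The largest parts were PAX5 (mean 13.0 CPM with DMSO and 23.5 with BIX-01294), CD3E (493 and 552) and CSF1R (2.54 and 4.25). In this single line each sum thus mostly gives the level of 1 gene. The part of these genes in the AHR difference was not tested.

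**Figure D3:**
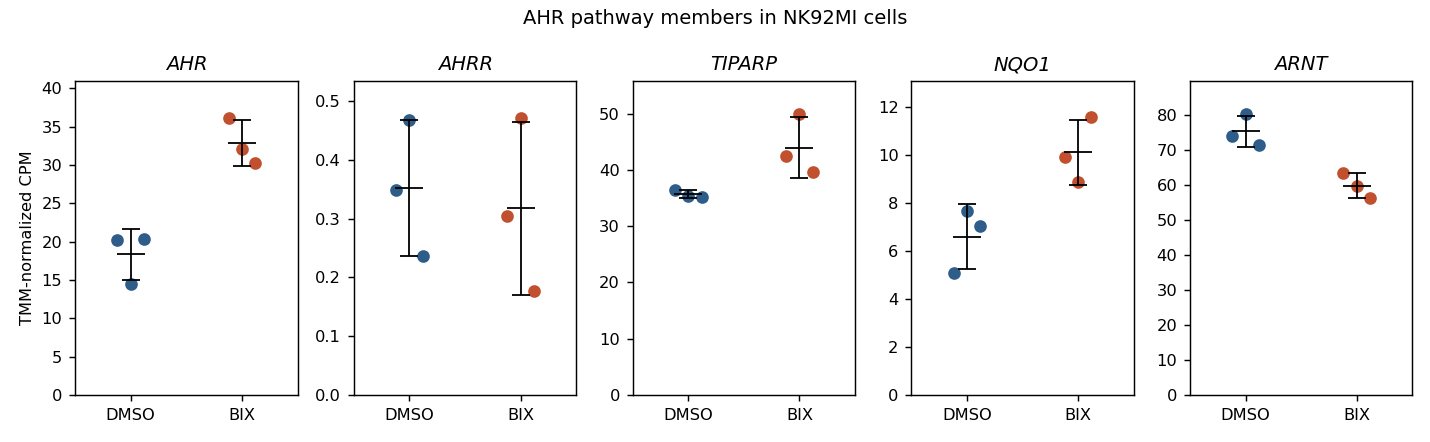
TMM-normalized CPM (y axis, from 0, a separate scale for each gene) of AHR, AHRR, TIPARP, NQO1 and ARNT in 3 DMSO and 3 BIX-01294 libraries of NK92MI cells. Points are libraries, and bars are the mean and SD (n = 3). AHR lies between 30.3 and 36.2 CPM with BIX-01294 and between 14.5 and 20.4 CPM with DMSO, ARNT is lower with BIX-01294, and the groups of AHRR overlap.

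**Figure D4:**
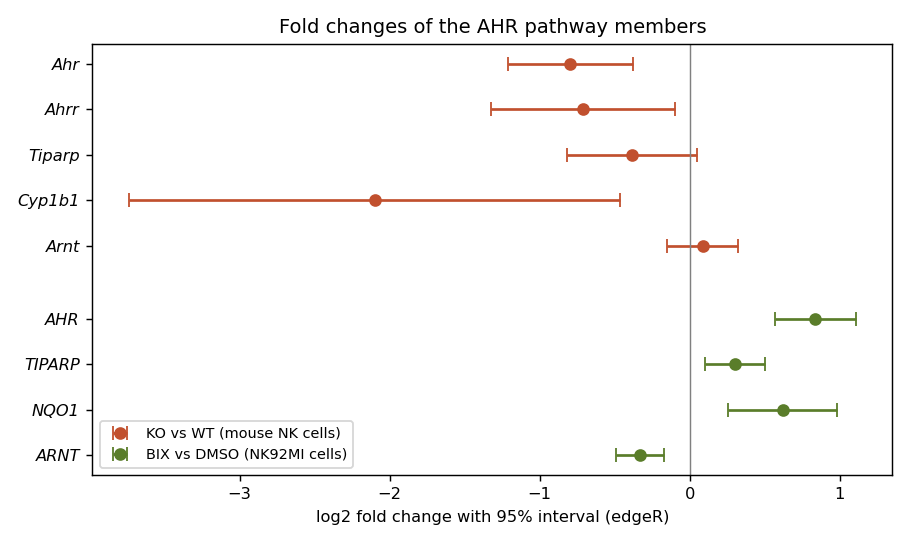
Log2 fold changes (x axis) of the 9 tested genes with 95% intervals from edgeR, KO against WT in mouse NK cells and BIX-01294 against DMSO in NK92MI cells. Ahr is at -0.80 and AHR at 0.84. The genes were selected on these fold changes, so the intervals are descriptions and are not read as tests against 0.

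The members differed widely in level. Per kilobase of exon, the control level in WT mouse NK cells was 8.49 ± 0.381 CPM for Arnt, 4.03 ± 0.702 for Tiparp, 3.80 ± 0.887 for Ahr, 0.185 ± 0.0274 for Ahrr and 0.111 ± 0.0673 for Cyp1b1 (SD, n = 3). The ranges of Tiparp and Ahr overlapped, as did those of Ahrr and Cyp1b1, and the other neighbours in this order were apart. In DMSO-treated NK92MI cells, the control level per kilobase was 11.7 ± 0.704 CPM for ARNT, 7.44 ± 0.147 for TIPARP, 2.28 ± 0.417 for AHR, 2.22 ± 0.457 for NQO1 and 0.0370 ± 0.0122 for AHRR (SD, n = 3), with AHR and NQO1 overlapping. By these values, the partner was more abundant than the receptor in both species, and the repressor was far scarcer than either. The exon lengths come from GENCODE models, and the annotation used in counting is not given. The count of AHRR is also uncertain because of its readthrough gene.

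The ratio of receptor to partner differed between groups. The ratios restate values on which the genes were selected, so they are given as descriptions. AHR per kilobase was 21.9, 14.5 and 22.9% of ARNT with DMSO and 45.8, 43.2 and 43.1% of ARNT with BIX-01294. These groups did not overlap, and in KO mice the corresponding share was below that of WT. Tiparp per kilobase was 113, 110 and 97.8% of Ahr in WT and 169, 135 and 120% in KO, so that Tiparp was higher relative to Ahr in each KO library. TIPARP was 303, 410 and 289% of AHR with DMSO and 197, 261 and 219% with BIX-01294.

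The genes with levels most like those of the receptor, by Pearson's r of log2 CPM over the 6 libraries of a species, were Dusp23 (r = 0.998), Adam9 (0.995), Tbc1d14 (0.995), N4bp2 (0.994) and Rnmtl1 (0.991) in mouse. In human they were RAB21 (r = 0.9996), CLDND1 (0.999), COMMD2 (0.999), LNC-WAL (0.998) and GTF2H3 (0.997). The 6 libraries share the group difference, and with so many genes and so few libraries high values of r occur for many genes, so the lists are descriptions.

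The counterparts of the members that were measured in 1 species are as follows. Mouse Nqo1 was low, at 2.48, 1.24 and 1.72 CPM in WT and 0.897, 0.593 and 0.576 CPM in KO, and its groups did not overlap. It fell by 1.40 on the log2 scale (standard error 0.37, edgeR adjusted p = 0.0491), a call that was lost without KO replicate 2 (-1.30), KO replicate 3 (-1.29), WT replicate 1 (-1.11) or WT replicate 3 (-1.45), with library totals alone (adjusted p = 0.0504) and with limma-voom (adjusted p = 0.0526). Human CYP1B1 was not analysed here. Cyp1a1, the classical AHR-induced cytochrome, was singled out after its values were seen and had 2, 0 and 0 counts in WT and 0, 6 and 0 counts in KO.

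The rest of the AHR pathway was described with 5 lists of 55 genes in all, without the members. In mouse, 44 of the 55 were tested, and edgeR called 0 higher and 4 lower, beside 4.44% and 7.43% of all genes tested, with a median log2 fold change of 0.00 beside 0.01 for all genes. An unadjusted edgeR p under 0.05 was reached by 17, of which 4 were higher and 13 lower, and DESeq2 called 2 higher and 9 lower. Over all genes, 4719 of the 13189 tested reached an unadjusted edgeR p under 0.05. DESeq2 called 1097 of 16465 genes higher and 1997 lower. These counts over all genes also stand beside those of each list below. Of the core and chaperone list, an unadjusted edgeR p under 0.05 was reached by 4 higher and 3 lower, and DESeq2 called 2 higher and 2 lower. EdgeR called 1 of its 12 genes, Hif1a, a factor of the hypoxia response that also pairs with Arnt. Hif1a was at 86.1, 74.6 and 87.4 CPM in WT and 63.8, 61.1 and 66.5 CPM in KO, lower in 3 of 3 KO libraries (log2 fold change -0.37, standard error 0.09, edgeR adjusted p = 0.0446). Its call was lost with any library but WT replicate 2 left out (log2 fold change -0.41 to -0.34).

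Of the xenobiotic targets, 3 of 8 tested were called lower, Nqo1, Scin and Slc7a5, beside 7.43% of all genes tested. Scin, which encodes the actin-severing protein scinderin, was at 13.9, 10.8 and 11.8 CPM in WT and 6.15, 4.96 and 6.53 CPM in KO (log2 fold change -1.05, standard error 0.17, edgeR adjusted p = 0.0269). Slc7a5, the large neutral amino acid transporter that also carries tryptophan-derived ligands, was at 46.4, 32.6 and 38.6 CPM in WT and 20.2, 19.8 and 20.7 CPM in KO (-0.95, standard error 0.13, edgeR adjusted p = 0.0239). The KO values of Slc7a5 were nearly alike and all below WT. Slc7a5 also stood on the ligand metabolism list, as the 1 of 8 tested there that edgeR called. On that list the median log2 fold change was -0.68. An unadjusted edgeR p under 0.05 was reached there by 0 higher and 5 lower, and DESeq2 called 0 higher and 4 lower, beside the counts over all genes given above. Of the 11 cofactors edgeR called 0, with 1 at an unadjusted p under 0.05 and 0 called by DESeq2, and of the 6 tested immune targets it also called 0, with 2 at an unadjusted p under 0.05 and 1 called by DESeq2. The count of 4 became 0 without KO replicate 2, KO replicate 3 or WT replicate 3 (9, 10 and 8 genes with an unadjusted p under 0.05), 1 without WT replicate 1, 8 without KO replicate 1 and 12 without WT replicate 2.

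NQO1 is also a target of NRF2, and a list of 14 other genes of the NRF2 response was read beside it. In mouse, 13 were tested and edgeR called 0 higher and 4 lower, beside 4.44% and 7.43% of all genes tested. The median log2 fold change was -0.41 beside 0.01 for all genes. An unadjusted edgeR p under 0.05 was reached by 1 higher and 8 lower, beside 4719 of the 13189 genes tested. DESeq2 called 0 higher and 6 lower, beside 1097 higher and 1997 lower of 16465 genes. Hmox1, the haem oxygenase that red pulp macrophages use in iron recycling, was at 2242, 407 and 1171 CPM in WT and 283, 144 and 229 CPM in KO (-2.54, standard error 0.57, edgeR adjusted p = 0.0402). Ordered by Hmox1, the 6 libraries stood in the same order as by the macrophage marker sum. Gclm, a subunit of the glutathione synthesis enzyme, fell by 0.75 (standard error 0.10, edgeR adjusted p = 0.0215), and Gsr, glutathione reductase, by 0.87 on the log2 scale (standard error 0.22, edgeR adjusted p = 0.0458). Taldo1, of the pentose phosphate pathway, fell by 0.51 (standard error 0.13, edgeR adjusted p = 0.0481). These 4 genes were lower in 3 of 3 KO libraries, and the part of macrophage RNA was not tested. The count of 4 became 0 without KO replicate 2, KO replicate 3 or WT replicate 3 (7, 5 and 6 with an unadjusted p under 0.05), 1 without WT replicate 1, 6 without KO replicate 1, of which 1 was higher, and 9 without WT replicate 2. Gsr was no longer called without KO replicate 1 (-0.86).

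In NK92MI cells, 36 of the 55 genes were used and 33 tested, and 12 were called higher and 5 lower, beside 18.4% of all genes tested in each direction, with a median log2 fold change of 0.05 beside -0.01 for all genes. Of the core and chaperone list, HSP90AA1 (-0.29, standard error 0.06), HSP90AB1 (-0.31, standard error 0.06) and DDB1, an adaptor of the ubiquitin ligase in which AHR can take part (-0.33, standard error 0.07), were lower, and 6 of 10 tested were not called. HIF1A rose from 185, 165 and 180 CPM to 234, 241 and 219 CPM (log2 fold change 0.39, standard error 0.07, edgeR adjusted p = 0.000510). HIF1A was higher in all 3 treated libraries, whereas Hif1a was lower in KO mice.

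Of the 10 cofactors, 3 were called higher and 2 lower, beside 18.4% of all genes tested in each direction. RELB, the NF-kB subunit that can pair with AHR, was at 21.4, 25.1 and 21.2 CPM with DMSO and at 56.5, 52.1 and 69.1 CPM with BIX-01294, higher in 3 of 3 libraries (log2 fold change 1.39, standard error 0.11, edgeR adjusted p = 7.89e-07). The coactivators NCOA1 (0.45, standard error 0.07) and NCOA3 (0.43, standard error 0.09) also rose. The chromatin remodeller SMARCA4 fell (-0.45, standard error 0.06).

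Among AHR immune targets, edgeR called 5 of 7 tested higher and 0 lower, beside 18.4% of all genes tested in each direction. At an unadjusted edgeR p under 0.05 and by DESeq2, 0 were lower as well. KIT, the stem cell factor receptor, rose from 10.1, 11.8 and 12.5 CPM to 20.5, 16.7 and 18.7 CPM (log2 fold change 0.70, standard error 0.12, edgeR adjusted p = 0.000574). IL10, an inhibitory cytokine, was at 7.51, 6.61 and 8.52 CPM with DMSO and 11.99, 11.4 and 10.6 CPM with BIX-01294 (0.59, standard error 0.14, edgeR adjusted p = 0.00395). The values of both genes did not overlap between groups. ENTPD1, which encodes the ectonucleotidase CD39 (0.54, standard error 0.08), PRDM1, which encodes the transcription factor BLIMP1 (0.48, standard error 0.07), and the homing receptor gene GPR15 (0.33, standard error 0.06) rose as well. The difference from the mouse comparison was not tested, and mouse Il10 had too few counts for a test.

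Of the ligand metabolism genes, 2 of 5 tested were called higher, beside 18.4% of all genes tested in each direction. SLC3A2, the heavy chain that partners SLC7A5 in amino acid transport, rose from 131, 149 and 131 CPM to 377, 366 and 472 CPM (log2 fold change 1.57, standard error 0.09, edgeR adjusted p = 7.16e-08). IL4I1, a secreted amino acid oxidase whose products can activate AHR, was barely detected, at 0.233, 0.585 and 0.237 CPM with DMSO and 1.34, 0.999 and 1.06 CPM with BIX-01294 (1.67, standard error 0.44, edgeR adjusted p = 0.00888). Both genes were higher in 3 of 3 treated libraries, and IL4I1 was no longer called without CON-3 (1.45). Of the xenobiotic targets other than the members, 2 were tested and NFE2L2, which encodes NRF2, was called higher (0.44, standard error 0.07, edgeR adjusted p = 0.000185).

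Of the NRF2 list, 10 genes were tested in NK92MI, with a median log2 fold change of -0.02 beside -0.01 for all genes. EdgeR called 1 lower and 2 higher, beside 18.4% of all genes tested in each direction. NFE2L2 was 1 of the 2, and the other was the cystine transporter SLC7A11, at 21.1, 20.2 and 25.7 CPM with DMSO and 44.02, 44.8 and 34.1 CPM with BIX-01294 (0.88, standard error 0.12, edgeR adjusted p = 9.02e-05).

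**Figure D5:**
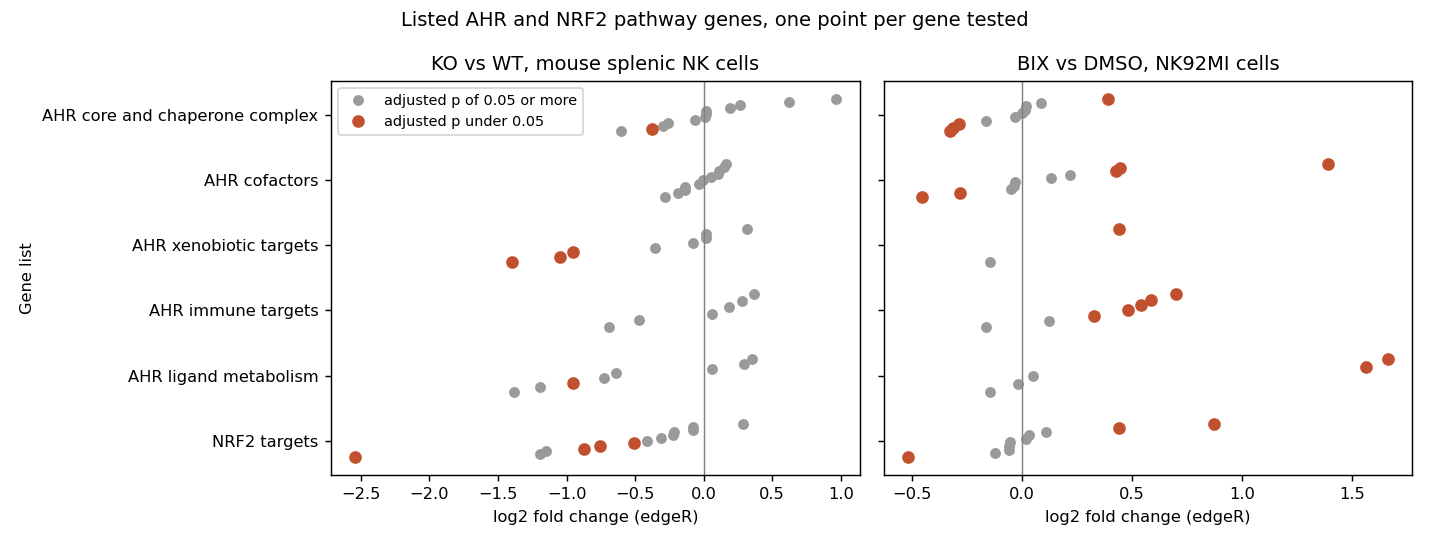
Log2 fold changes (x axis) of the listed AHR and NRF2 pathway genes that were tested, without the members, by list (y axis), KO against WT at left and BIX-01294 against DMSO at right. Each point is a gene, orange where the edgeR adjusted p was under 0.05. The called mouse genes all lie below 0, and called genes in NK92MI lie on both sides, with all 5 called immune targets above 0.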

How the data were processed

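Reads were, per the labels and the study's methods, trimmed with fastp 0.23.4, aligned with STAR 2.7.11b to GRCm38 or GRCh38 allowing 2 mismatches, and counted with HTSeq 2.0.3. The authors deposited unnormalized counts by gene symbol, with 41 mouse and 15 human symbols on more than 1 row. The annotation release and strand setting are not given in the sources used here. KO samples were grouped by title. The numbers of the human control columns (CON-1 to CON-3) are not tied to DMSO samples by the labels, so they were used as a group.

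The genes, lists and call threshold were chosen with earlier results of these data known. Each species was fitted separately over all genes in edgeR 4.0.16 (R 4.3.3) with TMM, filterByExpr, the quasi-likelihood test and Benjamini-Hochberg adjustment, and genes were called at an adjusted p under 0.05. CPM are TMM-normalized. Genes named are the 10 members, called list genes, counterparts, the targeted gene, the 5 genes most like the receptor, the main genes of human marker sums and pan-NK genes that the study reported. The fit was also run on counts simulated independently for each gene, without shifts in cell composition, and the outcome is not used here. Alternatives were DESeq2 1.42.0 or its size factors, library totals, no filter or one on mean CPM (1 or more), limma-voom (limma 3.58.1), the replicate block, scaling to pan-NK genes, each library left out, and the study's thresholds (adjusted p under 0.01, absolute log2 fold change over 0.5). KYAT1, with several rows, was left out, and some list genes that were called are not reported here by name.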

Additional observations from a re-analysis of the deposited data

How the results depend on the processing

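In mouse, edgeR called 1565 genes in all (585 higher, 980 lower), 4 AHR pathway genes and 4 NRF2 targets. DESeq2 called 3094 genes and 11 AHR pathway genes. Scaling to the pan-NK genes called 8853 genes (35 higher, 8818 lower), 34 AHR pathway genes and 12 NRF2 targets, and by its construction lowers most genes. The study's thresholds with edgeR called 0 genes, 0 AHR pathway genes and 0 NRF2 targets, with 2699, 11 and 6 past the fold threshold at an unadjusted p under 0.05, whereas with DESeq2 they called 1500, 3 and 5. With each library left out in turn, the counts ranged from 0 (without KO replicate 2 or KO replicate 3, with 3208 and 3287 genes at an unadjusted p under 0.05) to 3530 genes (without WT replicate 2), from 0 to 12 AHR pathway genes and from 0 to 9 NRF2 targets. Fits without 1 library use fewer samples, and the cause of the other changes was not tested.

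With the replicate block, edgeR called 3222 genes and 12 AHR pathway genes in mouse. Deviations from the group mean correlated at 0.28, 0.35 and -0.19 between same-numbered WT and KO libraries. KO replicate 1 and WT replicate 3, with unlike numbers, correlated at 0.28. With 3 libraries in each group these values cannot decide whether the numbers pair the samples. In human no paired analysis was possible because the labels do not tie the control columns CON-1 to CON-3 to the numbered DMSO samples.

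In human, edgeR called 4692 genes and 17 AHR pathway genes. The study's thresholds gave 1485 genes and 6 AHR pathway genes with edgeR, and 1444 and 5 with DESeq2. Leaving out a library kept 2 to 4 members called. No fold change of the members or named list genes changed sign under the alternatives run, except Arnt with the pan-NK scaling (-0.77). Cyp1b1, Ahrr and human AHRR are limited by depth.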
